A study of Mus musculus with 3 samples.

Results

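Von Willebrand factor (Vwf) transcripts were used to pick out a group of endothelial cells (ECs) in mouse bone marrow (BM), and the other genes of a targeted panel were then read in that group. A cell was taken as Vwf-high and non-arterial when it had at least 3 molecules of Vwf, at least 5 molecules of Pecam1 and Kdr together making up at least 5% of its molecules, no molecule of the pan-leukocyte gene Ptprc and no molecule of the arterial gap junction gene Gja4. Of 4043 cells in the library of sorted E18.5 ECs, 472 met this rule, and of 7948 cells in the library of Adult BM cells, 172 did. These 644 cells came from 11991 cells in both libraries and from 24875 in the whole series.

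The animals were C57/B6 wild type (WT) mice, and no group carried a further allele or received an agent. The E18.5 EC library held ECs sorted from the BM of embryos late in gestation (E18.5), with a gate described as CD31 alone in the methods and as CD31 with endomucin in the series text. The Adult BM cells library held adult marrow cells left after lineage antibodies and magnetic beads had taken away mature haematopoietic cells. One more library, of E18.5 BM cells depleted of lineage-positive cells, is given only beside these. The depletion differed by stage in the paper's whole transcriptome protocol. Fetal cells there had lineage depletion alone, and adult cells had further bead steps against CD71, CD117, CD45 and Ter119. Each library was a pool of animals and there was 1 library a group, so no difference could be tested. Effects of age cannot be told apart from those of sorting or depletion, of depth, or of the library itself.

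Von Willebrand factor is a large glycoprotein that ECs and megakaryocytes make and store, and that binds platelets at sites of vessel injury. Along the vascular tree it is known to be unevenly made, with much of it in veins and larger vessels and little in many capillaries and sinusoids. Fibrillin-1 (Fbn1) and fibulin-5 (Fbln5) are proteins of the elastic fibres that give larger vessels their recoil, and matrix Gla protein (Mgp) is an inhibitor of vessel wall calcification. Wnt ligands are secreted proteins that act on frizzled receptors of nearby cells, and the study built the panel around them because many Wnt pathway transcripts are hard to detect in whole transcriptomes.

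Values are unique molecules, and a level is the number of molecules of a gene per 10000 panel molecules of the same cells. Each range in parentheses after a level, ratio or share is a 95% interval for counting error only, exact Poisson for levels, exact conditional binomial for ratios and exact binomial for shares. Such intervals are too narrow where a few cells hold most of the molecules, so numbers of cells are given beside them. The libraries held 432987 molecules in E18.5 EC and 6304495 in Adult BM cells, with medians of 83 and 242 molecules a cell over all cells. No cell had under 20 molecules, 38 barcodes occurred in both libraries, and 0 barcodes were shared between the Vwf-high cells of the 2 stages. E18.5 BM cells shared a further 58 barcodes with E18.5 EC and 113 with Adult BM cells. In all, 13 Vwf-high cells at E18.5 and 5 in the adult carried a barcode that another library also held. No doublet caller was run.

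The values that chose the cells are described first. Vwf-high cells were 19.0% (17.5 to 20.6) of 2486 E18.5 cells that met the limits without Gja4, and 17.3% (15.0 to 19.8) of 993 such adult cells. At E18.5, Vwf ran from 3 to 61 molecules a cell with a median of 5, and in the adult from 3 to 102 with a median of 9. Exactly 3 molecules were present in 113 E18.5 cells and 22 adult cells, and 13 or more in 86 and 68 cells. Cells just outside the limit, with 2 molecules of Vwf, numbered 159 and 30. The 472 E18.5 cells held 58.8% of the 6849 Vwf molecules of their library, and the 172 adult cells 50% of 5411. Pecam1 stood at 2668 per 10000 in the E18.5 cells and 1685 in the adult cells, and Kdr at 224 and 81.2.

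Haematopoietic cells, in which little Vwf is expected outside the megakaryocyte lineage, served as a background. Among cells with Ptprc and neither Pecam1 nor Kdr, 3 or more Vwf molecules were found in 0 of 175 at E18.5. The exact binomial upper limit of that share was 2.09%, and these cells had 65 molecules at the median. In the adult the share was 2.22% of 450 such cells, with 80.5 molecules at the median. Vwf-high cells were deeper than cells that met the same limits with no Vwf (Vwf-0 cells). Their medians were 93 (lowest 22, highest 357) against 65 molecules at E18.5, and 122.5 (36 to 625) against 88 in the adult. The Vwf-0 cells numbered 1499 and 710 and are the comparison group below. A further 515 and 111 cells had 1 or 2 Vwf molecules, and 467 and 670 cells that met the endothelial limits had Gja4.

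The label was checked against Igfbp7, which the rule did not use, with Kdr, which the rule used in part, beside it as a description. Igfbp7, a secreted protein abundant in marrow ECs, was present in all but 28 of the 472 E18.5 cells, and Kdr in all but 77. In the adult, 48 of 172 cells had no Igfbp7 and 83 had no Kdr. The cells without Igfbp7 were not spread evenly. In 45 adult cells the granule proteoglycan gene Srgn, which blood cells of many kinds express, made up at least 20% of molecules, with a median of 50.7%, and only 9 of the 45 had Igfbp7. Of the other 127 adult cells, 115 had Igfbp7. Kdr was missing from 34 of the 45 cells and also from 49 of the other 127, against 55 of 710 adult Vwf-0 cells. No E18.5 Vwf-high cell reached that share of Srgn, as the plot of Srgn against Igfbp7 shows. The 45 Srgn-rich cells thus went against an endothelial label. They are given no other name here, but Vwf and Pecam1 are also made by megakaryocytes and platelets. Adult ratios below are given with these cells and, for the genes described, without them as well, a split made after the data had been seen.

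**Figure D1:**
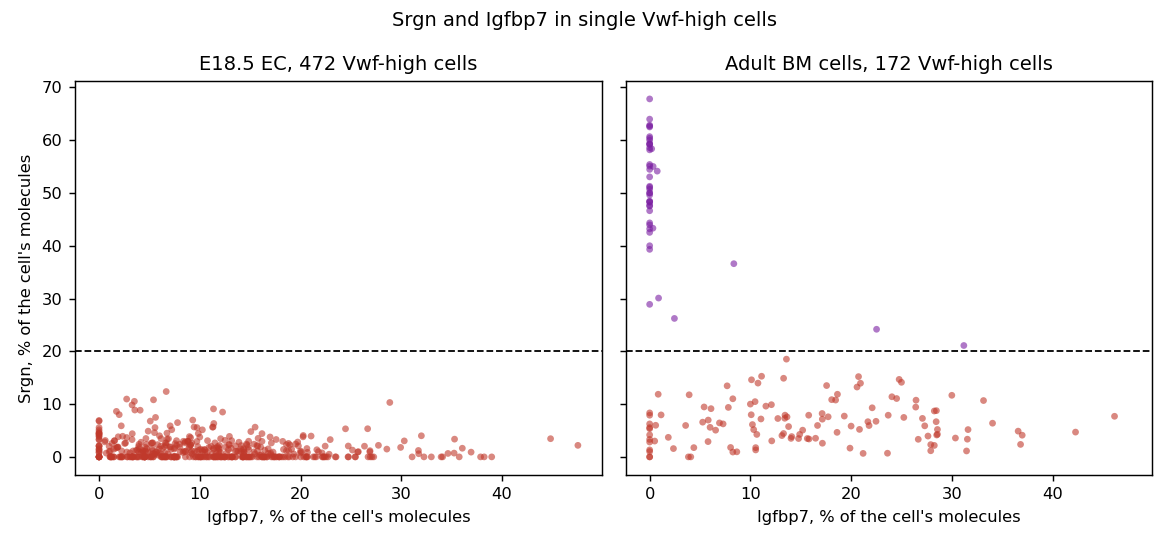
Share of each Vwf-high cell's molecules taken by Igfbp7 (horizontal axis, %) and by Srgn (vertical axis, %), with 1 point a cell. The dashed line marks Srgn at 20%, above which 45 of 172 adult cells (purple) and 0 of 472 E18.5 cells lay, most of them with no Igfbp7.

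The arterial side of the label rests on 1 gene, Gja4, with a count of 0 at shallow depth. Beside it stood Sema3g, a semaphorin of arterial ECs, and Hey1, a Notch target of arteries. At E18.5, Sema3g was at 33.1 per 10000 in Vwf-high cells, 29.4 in Vwf-0 cells and 281 in cells with Gja4. Hey1 was at 28.1, 21.2 and 242. In the adult, Sema3g was at 52.0, 91.7 and 755. In these libraries Vwf-high cells therefore lay near the Vwf-0 cells and far below the cells with Gja4 for both genes. The chemokine gene Cxcl12 made the same contrast in E18.5 EC, with 5.01 in Vwf-high cells and 346 in cells with Gja4. In E18.5 BM cells, which the rule did not use, 18 cells met the same limits. There Sema3g was at 113 against 19.6 in Vwf-0 cells (5.76, 3.33 to 9.69) and Hey1 at 98.3 against 33.3 (2.95, 1.71 to 4.87). In that library both genes thus lay above the Vwf-0 cells.

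The Wnt ligand genes Wnt2 and Wnt9b had the largest ratios at E18.5, and the sequence just upstream of each is shown because these genes were found in the same cells. Wnt2 lies on the minus strand at chr6:17988940-18030585 of GRCm38 and has 5 exons in the annotated transcript. Wnt9b lies on the minus strand at chr11:103727364-103749821 and has 4 exons. The windows below come from RefSeq (GRCm38.p6), hold no annotated exon, and run 5′ to 3′ up to the first base of each transcript, over chr6:18030586-18030695 and chr11:103749822-103750071 on the minus strand.
Wnt2: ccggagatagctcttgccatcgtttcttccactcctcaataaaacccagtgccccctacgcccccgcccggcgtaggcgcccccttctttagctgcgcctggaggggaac
Wnt9b: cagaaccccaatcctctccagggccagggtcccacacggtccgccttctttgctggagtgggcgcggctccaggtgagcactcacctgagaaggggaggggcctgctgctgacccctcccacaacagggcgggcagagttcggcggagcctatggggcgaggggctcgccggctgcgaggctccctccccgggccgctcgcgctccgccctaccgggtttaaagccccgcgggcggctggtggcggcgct
Both windows were rich in G and C, which made up 62.7% of the 110 bases for Wnt2 and 72% of the 250 bases for Wnt9b, where the median over 32851 RefSeq windows of 250 bases was 52.4%. Neither held GATAA or its reverse complement TTATC, which 12% of all windows hold in 110 bases and 22.6% in 250 bases. Neither held CCGGAA or its reverse complement TTCCGG, found in 3.61% and 12%. No letters are in capitals because neither motif was found. RefSeq's table held no window for Vwf.

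In E18.5 EC, Vwf-high cells were set against Vwf-0 cells of the same library. Matrix and Wnt ligand genes stood higher in Vwf-high cells, while proliferation genes and several capillary genes stood lower. Of 60 genes with at least 20 molecules in both groups together, 9 were at least 2-fold higher (15.0%) and 4 at least 2-fold lower (6.67%), and the median ratio was 1.0. Among the 9 were Wnt9b, Wnt2, Mgp, Fbn1, the smooth muscle actin gene Acta2, Fbln5, the receptor Fzd7 and the kinase gene Cdk14. When the rule was applied to molecules after the weaker, recursive error correction (RSEC) in place of the distribution-based one (DBEC), 3 genes were at least 2-fold higher and 0 lower.

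Elastic fibre and vessel wall genes made up most of the molecules behind these ratios. Fbln5 had 1356 molecules in 307 of 472 Vwf-high cells and 1237 in 599 of 1499 Vwf-0 cells. This gave 272 per 10000 (258 to 287) against 108 (102 to 114), a ratio of 2.51 (2.33 to 2.72). Fbln5 is at chr12:101746565-101819055 on the minus strand. Fbn1 had 123 molecules in 74 cells against 55 in 51 cells, or 24.7 (20.5 to 29.4) against 4.81 (3.62 to 6.26), a ratio of 5.13 (3.70 to 7.19). Fbn1 is at chr2:125300594-125506385 on the minus strand. Of the 74 cells with Fbn1, 59 also had Fbln5.

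Mgp, at chr6:136872435-136875823 on the minus strand, was concentrated in few cells. It had 169 molecules in 34 Vwf-high cells, up to 29 in 1 cell, and 37 molecules in 26 Vwf-0 cells, for a ratio of 10.5 (7.31 to 15.4). Extracellular matrix protein 1 (Ecm1), at chr3:95734147-95739569 on the minus strand, differed less, with 114 per 10000 (105 to 124) against 78.5 (73.4 to 83.8) and a ratio of 1.45 (1.31 to 1.62). It was present in 271 Vwf-high cells. Summed over the elastic fibre list, the level was 445 against 196, a ratio of 2.28 (2.14 to 2.41). Of its 4 measured genes 3 were at least 2-fold higher, against 15.0% of all genes. The list was chosen with earlier results of these data known, so this count is a description. Vcan, the fifth gene of this list, had only 4 molecules in Vwf-high cells.

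Since deeper cells can show a gene more often, each cell was also thinned to 50 molecules, leaving out 56 Vwf-high and 484 Vwf-0 cells. Fbln5 was then seen in 54.3% of Vwf-high and 32.5% of Vwf-0 cells, where the unthinned shares were 65.0% and 40%. The thinned share of Fbn1 was 9.86% against 2.66% (15.7% and 3.40% unthinned), and that of Mgp 6.49% against 0.985% (7.2% and 1.73%). For Ecm1 it was 39.4% against 30.9% (57.4% and 38.7%). The order of the levels was thus also seen in cells of equal depth.

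Wnt ligands were rare but uneven. Of 17 Wnt genes with a molecule in any library, 3 had enough molecules to compare and 9 were at 0 in the E18.5 Vwf-high cells. Summed over all 17, the level was 42.1 in Vwf-high and 5.51 in Vwf-0 cells, a ratio of 7.65 (5.74 to 10.3), with a ligand molecule in 54 of 472 and 52 of 1499 cells. With RSEC molecules this ratio was 3.10. Wnt2 had 143 molecules in 24 Vwf-high cells and 18 molecules in 12 Vwf-0 cells, or 28.7 (24.2 to 33.8) against 1.57 (0.932 to 2.49), a ratio of 18.2 (11.1 to 31.6). A single cell held 35 of the 143 molecules and the top pair of cells held 54. Thinned to 50 molecules, Wnt2 was seen in 3.85% of Vwf-high and 0.690% of Vwf-0 cells, against 5.08% and 0.801% unthinned.

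Wnt9b had 35 molecules in 14 Vwf-high cells and 1 molecule in the Vwf-0 cells, a ratio of 80.3 with an interval from 13.5 to 3261. Among all 2486 non-arterial cells within the limits, Wnt9b was found in 15, of which 14 were Vwf-high. Wnt5b, a ligand mostly tied to signalling without β-catenin, had 23 molecules in 19 cells against 35 in 32 cells, so that the interval of its ratio, 1.51 (0.850 to 2.62), held 1. Other ligands had at most 3 molecules each in the Vwf-high cells.

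Wnt2 and Wnt9b were found in the same cells. Of the 14 Vwf-high cells with Wnt9b, 12 also had Wnt2, which was 85.7%, and these 12 were 50% of the 24 cells with Wnt2. The 26 cells with either ligand had a median depth of 133.5 molecules and a median of 10 Vwf molecules, against 91 and 5 in the other 446 Vwf-high cells. Ecm1 stood at 214 in the 26 cells and 106 in the others, Fbn1 at 61.8 and 21.5, and the sinusoidal scavenger receptor gene Stab1 at 1128 and 648. The growth factor gene Ptn, by contrast, stood at 2.58 and 78.3, and Fbln5 at 56.7 and 290. Mgp, Sema3g and Hey1 were at 0 in the 26 cells and at 36.7, 35.9 and 30.4 in the others. No cell thus had Mgp together with either ligand, though only 34 of the 472 cells had Mgp at all. These cells were picked by their ligands after the data had been seen, and the values are a description.

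Levels were followed over the Vwf count of the cell. Wnt2 was at 1.57 with no Vwf, between 6.93 and 15.5 from 1 to 12 molecules, and at 84.4 in the 86 cells with 13 or more. Those 86 cells held 101 of the 143 Wnt2 molecules, in 11 cells, and 24 of the 35 Wnt9b molecules, in 9 cells. Fbn1 was at 7.70 with 2 molecules of Vwf, 7.92 with 3 and 60.2 with 13 or more, and Fbln5 at 167, 209 and 381. The limit of 3 therefore marked no step for Fbn1, and the highest levels were in the cells richest in Vwf. Mgp ran from 1.98 with 3 molecules to 90.3 with 13 or more.

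**Figure D2:**
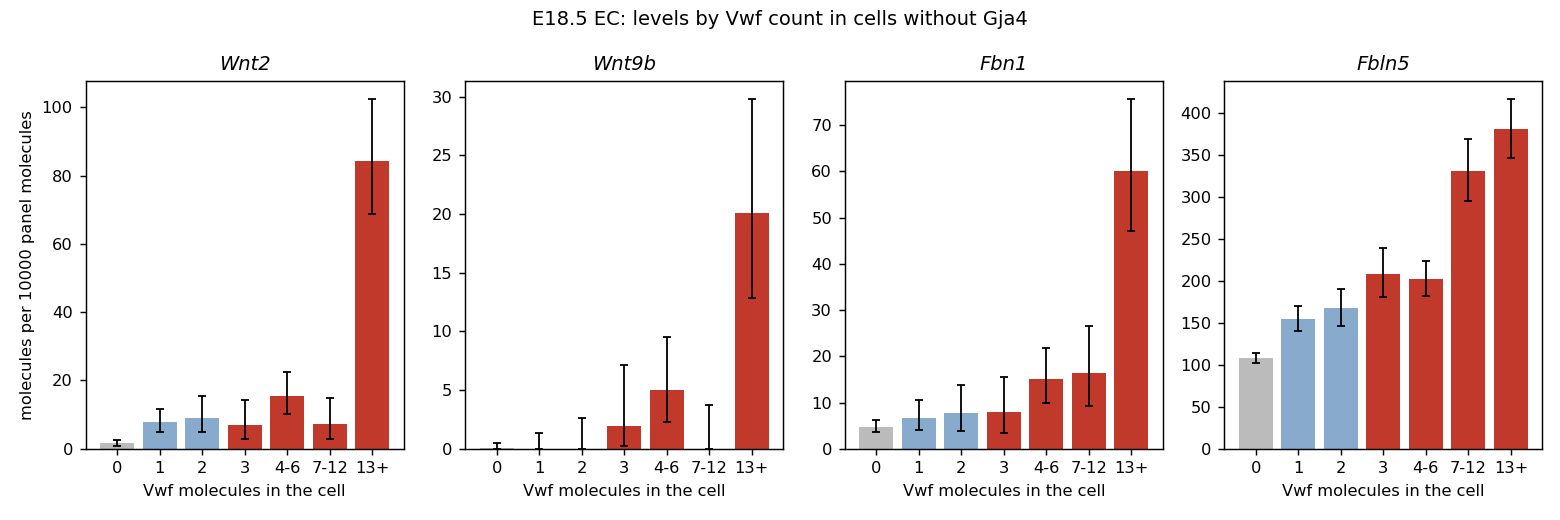
Level (molecules per 10000 panel molecules) of Wnt2, Wnt9b, Fbn1 and Fbln5 in E18.5 cells without Gja4, by the number of Vwf molecules in the cell. Bars are levels, error bars 95% Poisson intervals and red bars cells that meet the rule; the bar for 13 or more Vwf molecules is the highest in all 4 plots, at 84.4 for Wnt2 and 60.2 for Fbn1.

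The sinusoidal gene Stab1 stood higher too, though by less. It was at 685 (662 to 708) in Vwf-high and 483 (470 to 495) in Vwf-0 cells, a ratio of 1.42 (1.36 to 1.48), and was present in 436 of 472 Vwf-high cells. Srgn was at 147 against 83.2, a ratio of 1.77 (1.61 to 1.95). Arterial genes differed little, with ratios of 1.13 (0.929 to 1.36) for Sema3g and 1.33 (1.07 to 1.64) for Hey1.

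Genes of the capillary list stood lower in Vwf-high than in Vwf-0 cells. The list was at 872 against 1344, a ratio of 0.649 (0.628 to 0.671), with 0 of its 4 genes past 2-fold and all 4 ratios below 1. Kitl, the gene for stem cell factor, was at 257 against 437, a ratio of 0.587 (0.552 to 0.625). The adhesion gene Cdh13 was at 171 against 308, a ratio of 0.557 (0.516 to 0.600). Apln, the apelin gene of growing vessels, was at 378 against 520 (0.727, 0.690 to 0.766), and the hormone gene Stc1 at 65.8 against 78.4 (0.839, 0.737 to 0.953). Thinned to 50 molecules, Kitl was seen in 45.7% of Vwf-high and 64.9% of Vwf-0 cells, where the unthinned shares were 50% and 60.5%. The panel reads Kitl with 2 amplicons whose counts were equal in 86.0% of the cells with Kitl, so its intervals are too narrow.

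The 3 cell cycle genes were lower as well, none of them past 2-fold. Mki67, a marker of dividing cells, was at 134 against 212, a ratio of 0.633 (0.580 to 0.690), and was present in 99 Vwf-high cells. The mitotic kinase gene Cdk1 had a ratio of 0.699, and the topoisomerase gene Top2a one of 0.688. Their sum had a ratio of 0.678 (0.649 to 0.708). By Vwf count, Mki67 was at 212 with none, 209 with 3, and 57.7 with 13 or more molecules of Vwf. Thinned shares of cells with Mki67 were 20% and 34.6%, against 21% and 34.6% unthinned.

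Of the other Wnt pathway genes, 1 of 7 measured frizzled receptors and co-receptors passed 2-fold at E18.5, where 15.0% of all genes were higher. This was Fzd7, higher with 47 molecules in 43 cells against 50 in 48 cells (2.16, 1.42 to 3.28). In the list of signal transduction genes, 1 of 7 was at least 2-fold higher, again a share close to the 15.0% of all genes, which was Cdk14 at 2.06 (1.03 to 4.11), and the sum had a ratio of 0.938 (0.886 to 0.994). With RSEC molecules the ratio of Cdk14 was 0.687. Wls, which carries Wnt ligands to the cell surface, had a ratio of 1.27, and 0 of 5 Wnt and Notch target genes passed 2-fold.

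The 4 genes at least 2-fold lower had low counts or rested on few cells. Aspn, of fibroblasts, had 2 molecules in Vwf-high and 22 in Vwf-0 cells (0.209, 0.0238 to 0.848), and the Wnt antagonist gene Dkk3 had 3 and 22 (0.313, 0.0599 to 1.04). Rgs5, of pericytes, had 16 and 79 molecules (0.465, 0.253 to 0.802). With RSEC molecules the ratios of Aspn and Rgs5 were above 1, at 1.8 and 1.23. Ccn3 had 116 molecules in 72 cells against 676 in 311 (0.394, 0.320 to 0.480), where a single Vwf-0 cell held 198 of the 676. Others of the 10 lowest ratios were Cxcl12 at 0.610 (0.376 to 0.957) and S100a4 at 0.644 (0.396 to 1.01).

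Markers of other cell types were counted beside these results. All 4 mural genes (Acta2, Tagln, Rgs5, Notch3) were seen in E18.5 Vwf-high cells, in 6.78% of cells and 0.150% of molecules, against 3.67% and 0.141% in Vwf-0 cells. Acta2 itself had 24 molecules in 15 cells against 17 in 10, a ratio of 3.24 (1.67 to 6.42). Reticular stroma genes were present in 18.2% of Vwf-high and 10.3% of Vwf-0 cells, with Adipoq at 0 in the former. Haematopoietic genes were present in 70.3% and 46.7%, with Hlf and Kit at 0 in Vwf-high cells. Their part in the results was not tested.

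Cells with Gja4 give a second comparison at E18.5. Fbn1 (24.7 in Vwf-high cells, 22.5 in cells with Gja4), Wnt2 (28.7 and 27.0) and Wnt9b (7.02 and 5.06) had overlapping intervals in the 2 groups. Fbln5 (272 and 317) and Ecm1 (114 and 135) were at ratios of 0.858 and 0.846. In contrast, Stab1 stood at 685 in Vwf-high cells and 298 in cells with Gja4, and Apln at 378 and 152. Mgp stood at 33.9 and 310, but was seen in 34 of 472 Vwf-high cells and 34 of 467 cells with Gja4. Its gap thus lay in a few cells with many molecules, up to 257 in 1 cell with Gja4. Of the capillary list, Kitl (257 and 370), Cdh13 (171 and 256) and Stc1 (65.8 and 100) were, unlike Apln, higher in cells with Gja4. For Fbn1, Wnt2 and Wnt9b the level in Vwf-high cells thus lay near that in cells with Gja4. Wnt5b was at 4.61 in Vwf-high cells and 1.69 in cells with Gja4, a ratio of 2.73 (1.25 to 6.43). For Stab1 the level in Vwf-high cells lay above both other groups. Stab1 was not highest in the cells richest in Vwf, with 702 and 698 in cells with 1 and 2 Vwf molecules, 708 with 3 and 543 with 13 or more.

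**Figure D3:**
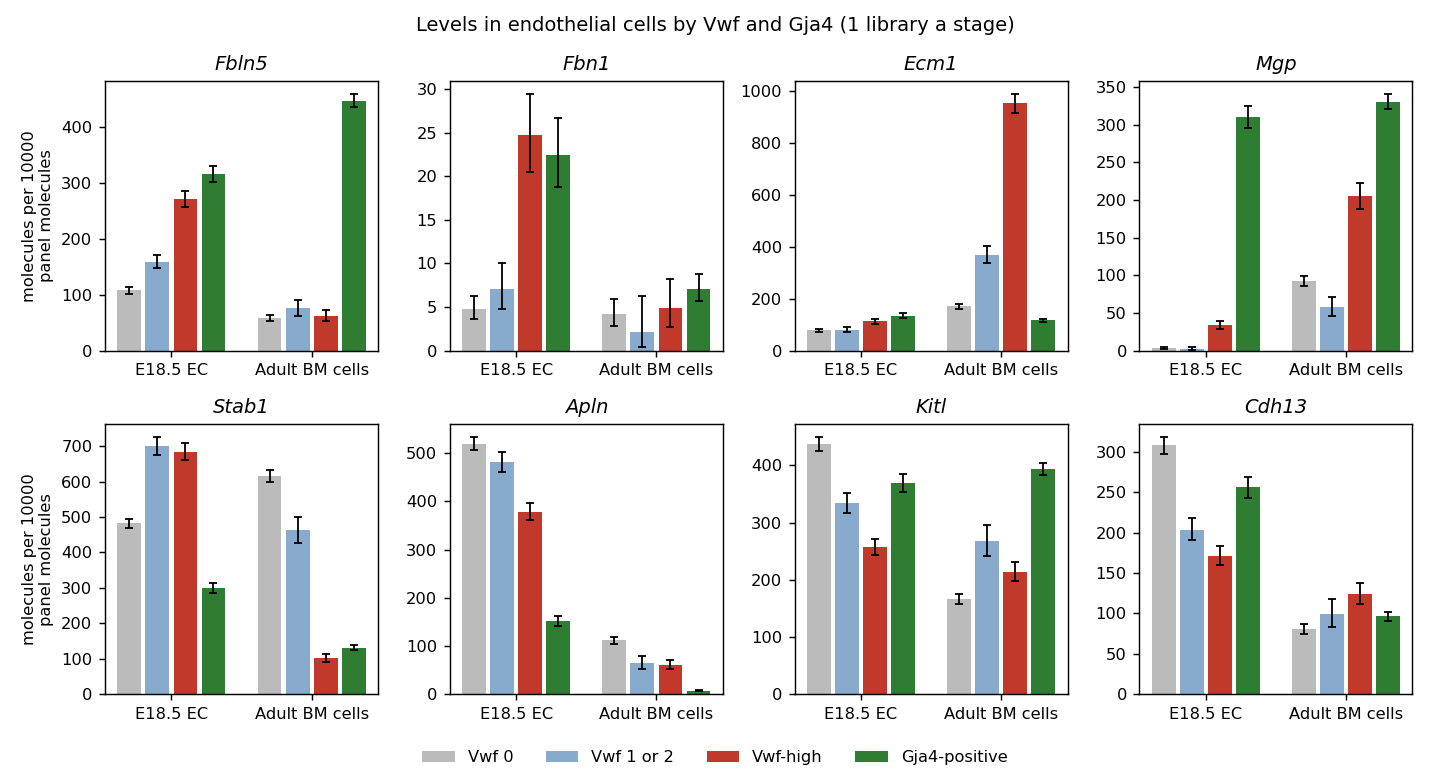
Level (molecules per 10000 panel molecules) of 8 genes in cells of the endothelial limits with no Gja4 and 0, 1 or 2, or at least 3 (Vwf-high) Vwf molecules, and in cells with Gja4, in each library. Bars are levels over all cells of a group and error bars 95% Poisson intervals; Stab1 was higher in Vwf-high than Vwf-0 cells at E18.5 and lower in the adult, and Kitl and Cdh13 the reverse.

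In Adult BM cells the same comparison was between 172 Vwf-high and 710 Vwf-0 cells. Of 75 genes measured, 6 were at least 2-fold higher (8.00%) and 35 at least 2-fold lower (46.7%), with a median ratio of 0.527. The 6 were Cytl1, Wnt9b, the actin-binding gene Tagln, Ecm1, Srgn and Mgp. Srgn alone stood at 2616 per 10000 in adult Vwf-high cells and 970 in Vwf-0 cells. All genes share the scale of panel molecules, and the part of Srgn in the lower ratios was not tested. Leaving out cells in which Srgn made up at least 20% of molecules left 127 Vwf-high and 651 Vwf-0 cells. The 59 Vwf-0 cells this took away were unlike the Srgn-rich Vwf-high ones. Their median Srgn share was 22.7%, and Igfbp7 was missing from 2 of them and Kdr from 2. Among the cells kept, 10 genes were at least 2-fold higher (13.3%) and 22 lower (29.3%), with a median ratio of 0.737. Srgn itself then had a ratio of 0.761 (0.712 to 0.814), but the cells had been left out by their Srgn, so this value only describes the cut.

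The 45 Srgn-rich cells had a median depth of 261 molecules and a median of 13 Vwf molecules, against 99 and 8 in the other 127. Srgn was at 5117 per 10000 in them and at 639 in the others. Ecm1 was present in all 45 cells at 1876 (1801 to 1953), against 225 (203 to 250) in the others, a ratio of 8.33. Igfbp7 was at 116 against 1504, and Kdr at 27.9 against 123, while Pecam1 was at 1587 and 1763. Kitl, Cdh13, Tagln, Rgs5 and Wnt9b were at 0 molecules in the 45 cells, and Fbln5 had 2. Of the 45 cells, 38 had Srgn at 40% of molecules or more and 7 lay between 20% and 40%, while 25 of the other cells had between 10% and 20%. Most Ecm1 molecules of the adult Vwf-high group, 2356 of 2714, were therefore in the Srgn-rich cells. Without the Srgn-rich cells its ratio fell from 5.58 (5.23 to 5.97) to 1.31.

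**Figure D4:**
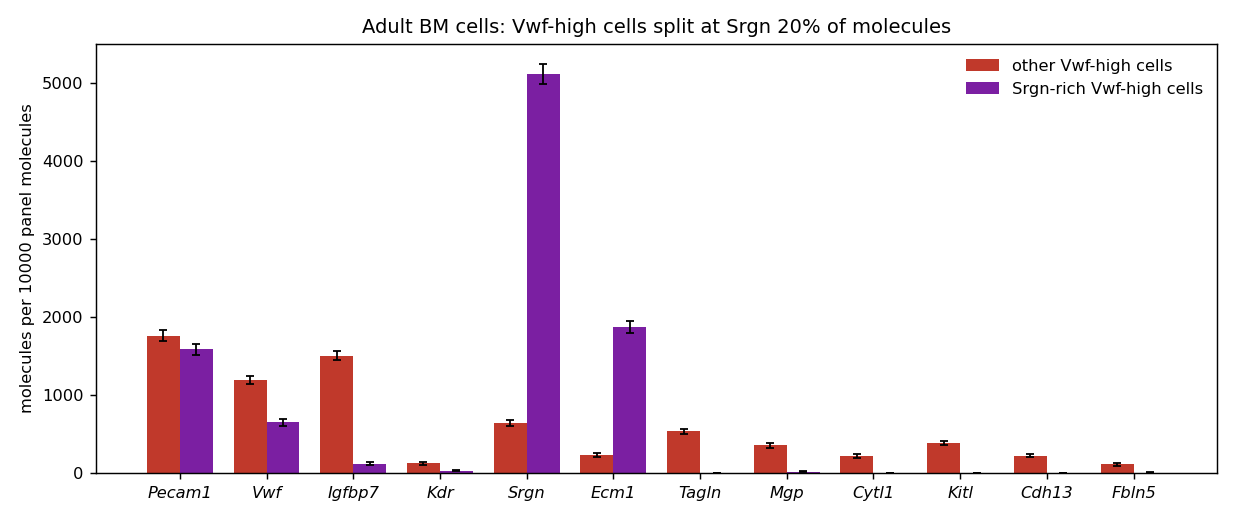
Level (molecules per 10000 panel molecules) of 12 genes in the 45 Srgn-rich adult Vwf-high cells (purple) and the 127 others (red), split where Srgn made up 20% of a cell's molecules. Bars are levels and error bars 95% Poisson intervals; Ecm1 stood at 1876 in the Srgn-rich cells and 225 in the others, where Igfbp7, Tagln, Mgp, Cytl1, Kitl, Cdh13 and Fbln5 were higher.

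Of the 6 higher genes, Ecm1 and Srgn were held mostly by the Srgn-rich cells, and Tagln, Cytl1, Mgp and Wnt9b by the 127 others. Tagln, a smooth muscle gene, had 846 molecules in 46 Vwf-high cells and 133 in 28 Vwf-0 cells, or 297 (278 to 318) against 16.9 (14.2 to 20), a ratio of 17.6 (14.6 to 21.3). All 846 molecules were in the 127 cells, in which its level was 532 and its ratio 29.3. Cytl1, a secreted cytokine-like gene, had 348 molecules in 17 cells, 98 of them in 1 cell, against 26 in 21 cells, a ratio of 37.0 (24.8 to 57.5), and 63.4 without the Srgn-rich cells. Mgp was at 205 against 92.5 (2.21, 1.98 to 2.47), and at 354 against 98.3 without the Srgn-rich cells, a ratio of 3.6.

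Cells with these genes overlapped in part. Of the 127 cells, 55 had Mgp, 46 had Tagln and 25 had both, which was 54.3% of the cells with Tagln and 45.5% of those with Mgp. Cytl1 was in 16 cells, of which 15 had Mgp and 7 had Tagln. Thinned to 50 molecules, Tagln was seen in 33.3% of these Vwf-high cells and 2.33% of Vwf-0 cells, both without Srgn-rich cells, where the unthinned shares were 36.2% and 4.15%. The thinned share of Mgp was 36.0% against 17.4% (43.3% and 26.6% unthinned). At E18.5, by contrast, Tagln had 30 molecules in 14 Vwf-high cells and Cytl1 had none in either group.

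Tagln is a mural gene, and the other mural genes were counted beside it. All 4 were seen in the adult Vwf-high cells, in 40.1% of cells and 3.77% of molecules, against 14.8% and 0.814% in Vwf-0 cells. Acta2, however, was in 8 of the 127 cells, of which 2 had Tagln. Its level was 3.87 in all 172 Vwf-high cells against 14 in Vwf-0 cells, and 6.29 against 14.9 without the Srgn-rich cells (0.423, 0.197 to 0.809), where it was 86.0 in cells with Gja4. A single Vwf-0 cell held 83 of the 110 Acta2 molecules of that group. Rgs5 was at 69.9 against 37.0 (1.89, 1.57 to 2.27), in 25 cells with up to 79 molecules in 1 cell, and at 373 in cells with Gja4. Whether mural RNA had a part in the level of Tagln was not tested.

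Wnt9b was the only Wnt ligand higher in adult Vwf-high cells among the 3 measured. It had 22 molecules in 9 cells against 2 in 2 cells, or 7.73 (4.85 to 11.7) against 0.254 (0.0308 to 0.918), a ratio of 30.4 (7.48 to 267), and 50.3 without the Srgn-rich cells. All 9 cells were among the 127 others, 4 of them with Cytl1 and 6 with Tagln. Cells with 13 or more Vwf molecules held 19 of the 22 molecules. In the whole adult library Wnt9b was found in 13 cells, so 9 of these 13 were Vwf-high, whereas the cells with Gja4, at a greater depth, held 1 molecule.

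Wnt2 had 4 molecules in 3 adult Vwf-high cells and 4 in 4 Vwf-0 cells, and no cell had both ligands. Wnt5b was lower in the adult, with 17 molecules in 8 cells against 180 in 109 (0.261, 0.149 to 0.430), and a ratio of 0.423 (0.236 to 0.706) without the Srgn-rich cells. Wnt9a had 3 molecules against 20, and the interval of its ratio held 1 both with all cells (0.415, 0.0789 to 1.40) and without the Srgn-rich ones (0.807, 0.151 to 2.79). The summed ligands had a ratio of 0.613 (0.443 to 0.834), and of 0.976 (0.697 to 1.34) without the Srgn-rich cells. The direction of the sum was therefore not settled in the adult.

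Elastic fibre genes other than Mgp and Ecm1 were under 2-fold in the adult. Fbln5 was at 62.6 (53.7 to 72.5) against 59.1 (53.9 to 64.7) in Vwf-0 cells, a ratio of 1.06 (0.885 to 1.26), and at 448 in cells with Gja4. Fbn1 had 14 molecules against 33, a ratio of 1.17 (0.580 to 2.25). Without the Srgn-rich cells the ratios were 1.81 for Fbln5 and 1.8 for Fbn1. The sum of the list had a ratio of 3.75 (3.56 to 3.95) with the Srgn-rich cells, most of it from Ecm1, and 2.08 (1.94 to 2.23) without them.

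Stab1 was far lower in adult Vwf-high cells. It was at 100 (88.9 to 113) against 616 (598 to 633), a ratio of 0.163 (0.144 to 0.183), and at 161 against 609 without the Srgn-rich cells (0.265). Thinned to 50 molecules, Stab1 was seen in 42.1% of Vwf-high and 83.7% of Vwf-0 cells, both without Srgn-rich cells (63.0% and 90.5% unthinned). Kdr, which the rule used in part, stood at 81.2 against 419, and at 123 against 417 without the Srgn-rich cells.

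Capillary genes went in both directions. Without the Srgn-rich cells Kitl was at 383 against 175 (2.19) and Cdh13 at 221 against 85.2 (2.59). With all cells their ratios were 1.28 and 1.55 (1.35 to 1.76). Without the Srgn-rich cells of both groups, thinned shares were 72.8% against 33.2% for Kitl and 59.6% against 25.2% for Cdh13, where unthinned shares were 81.1% and 42.9% for Kitl and 74.8% and 36.4% for Cdh13. In adult cells with Gja4 the thinned shares were 73.7% for Kitl and 38.8% for Cdh13. Apln and Stc1 were lower with all cells, with ratios of 0.537 (0.453 to 0.633) and 0.431 (0.333 to 0.551). Those of Apln and Stc1 without the Srgn-rich cells were 0.911 (0.768 to 1.08) and 0.538 (0.395 to 0.721). The sum of the capillary list had a ratio of 1.01 (0.945 to 1.08) with the Srgn-rich cells and 1.70 (1.59 to 1.82) without them. The arterial genes Sema3g (0.568) and Hey1 (0.824) were below 1 with all cells, and at 0.936 and 1.33 without the Srgn-rich cells.

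Cell cycle genes were low in adult Vwf-high cells, with 3 of 3 at least 2-fold lower, where 46.7% of all genes measured were. Mki67 had 5 molecules in 4 cells against 193 in 36 (0.0716, 0.0230 to 0.170), Cdk1 had 7 against 268 (0.0722, 0.0288 to 0.151) and Top2a 8 against 164 (0.135, 0.0573 to 0.272). Their ratios without the Srgn-rich cells were 0.0793, 0.114 and 0.225, with 3 of 3 again at least 2-fold lower against 29.3% of all genes. Others of the 10 lowest ratios in the adult were those of the matrix gene Postn, with 1 molecule against 61 (0.0453, 0.00113 to 0.262), Lef1 with 1 molecule (0.120, 0.00292 to 0.740), Fzd7 with 2 (0.123, 0.0144 to 0.470) and Aspn with 2 (0.135, 0.0158 to 0.519). The protease gene Mmp9 was at 0 against 24 molecules, all in 4 Vwf-0 cells. Set against 3 molecules over the group this makes it at least 2.89-fold lower, a bound that takes no account of how few cells held it. Postn and Mmp9 without the Srgn-rich cells were at 0 and at least 4.30-fold and 1.75-fold lower, Fzd7 was at 0.120 and Aspn at 0.111. Vwf-0 cells then held 59 Postn molecules in 9 cells and 41 Aspn molecules in 10 cells. The ratio of Lef1 was then 0.218 (0.00526 to 1.35), with an interval that held 1. Of the frizzled receptors and co-receptors, 4 of 6 measured were at least 2-fold lower, against 46.7% of all genes, and 1 of 6 without the Srgn-rich cells, against 29.3%.

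Ccn3, which was lower at E18.5, had 110 molecules in 42 adult Vwf-high cells and 157 in 50 Vwf-0 cells, a ratio of 1.94 (1.5 to 2.49) that was 3.11 without the Srgn-rich cells. Lepr, of reticular stroma, had a ratio of 1.38 (0.829 to 2.25), and of 2.24 (1.33 to 3.68) without the Srgn-rich cells. Markers of other types were common in the adult library in both groups. Osteoblast genes were present in 93.0% of Vwf-high and 94.4% of Vwf-0 cells, at 3.19% and 5.15% of molecules. Haematopoietic genes were in 97.7% and 97.5% of cells, at 26.3% and 9.91% of molecules, with Kit and Mmp9 at 0 in Vwf-high cells. Fibroblast genes were in 26.2% and 9.01%. Without any cell holding a mural, stromal, osteoblast or chondrocyte marker, 4 Vwf-high and 23 Vwf-0 cells were left in the adult. Their part in the adult ratios was not tested.

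The ratios of the 2 libraries are set side by side for 56 genes measured in both. Wnt9b (80.3 and 30.4) and Mgp (10.5 and 2.21) were at least 2-fold higher in Vwf-high cells of both. Aspn and Dkk3 were at least 2-fold lower in both, on 2 or 3 molecules each in the Vwf-high cells. The interval of Dkk3 held 1 at E18.5 (0.313, 0.0599 to 1.04). It also did in the adult without the Srgn-rich cells (0.435, 0.0495 to 1.78). Aspn was above 1 at E18.5 with RSEC molecules. In the 4 adult Vwf-high cells left without stromal marker cells the ratio of Mgp was 0.164. The elastic fibre genes Fbn1 and Fbln5 passed 2-fold at E18.5 and had adult ratios of 1.17 and 1.06 with all cells and 1.8 and 1.81 without the Srgn-rich ones, while Tagln and Ecm1 passed 2-fold in the adult with all cells (Ecm1 at 1.31 without the Srgn-rich ones) and had ratios of 1.27 and 1.45 at E18.5. In 11 genes the intervals lay on opposite sides of 1. Among these were Stab1 (1.42 and 0.163), Kitl (0.587 and 1.28) and Cdh13 (0.557 and 1.55). Without the Srgn-rich cells 10 of the 11 still did so. These differences between libraries were not tested, and stage cannot be told apart from sort, depth or library.

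**Figure D5:**
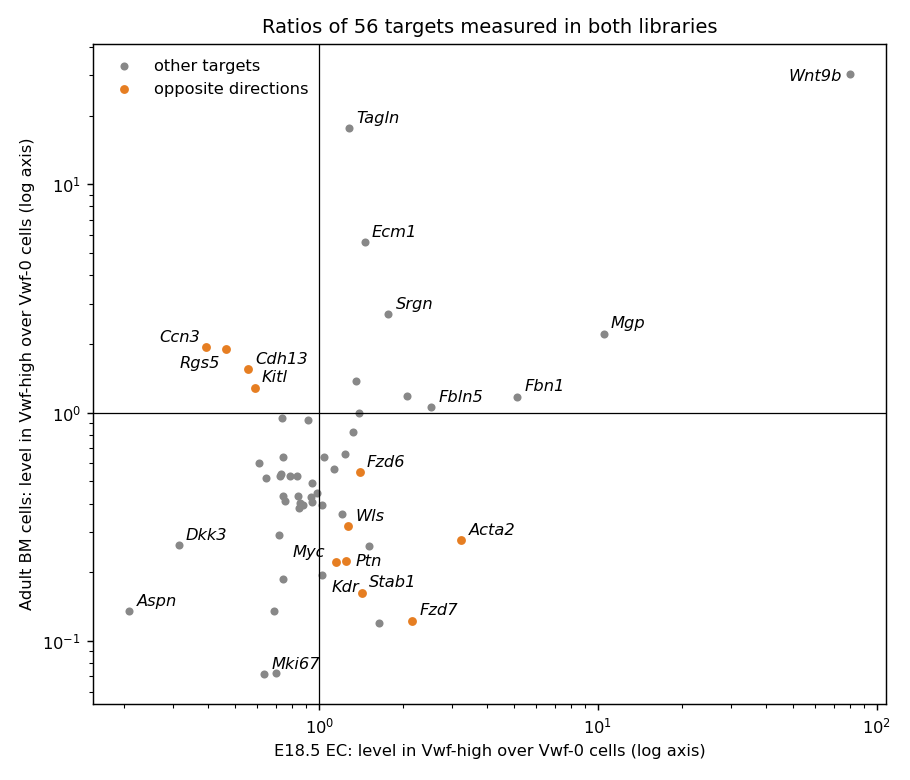
Ratio of the level in Vwf-high to that in Vwf-0 cells for 56 genes, at E18.5 (horizontal, log axis) and in the adult with all cells (vertical, log axis), with 1 point a gene and lines at 1. Orange points are the 11 genes whose intervals lay on opposite sides of 1; Wnt9b lay farthest to the upper right, at 80.3 and 30.4.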

How the data were processed

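Single cells of mouse BM were measured on the BD Rhapsody system with a custom targeted panel of Wnt pathway genes and cell type markers, in 3 libraries. The deposited files hold counts of unique molecules per cell and amplicon. Per the file headers, the authors made them with the BD Targeted Rhapsody Analysis Pipeline (version 1.8), and the submitters' processing notes name mm10. Molecule counts after the pipeline's distribution-based error correction (DBEC) were used, and recursive correction (RSEC) and uncorrected counts served as alternatives. Amplicons of 1 gene were summed, giving 125 genes. DBEC removes low counts, so a count of 0 for Ptprc or Gja4 depends on it. With RSEC, Ptprc was seen in 42.2% of E18.5 Vwf-high cells (at most 5 molecules) and Gja4 in 29.2% (at most 3). In E18.5 Vwf-0 cells, which were shallower, the shares were 32.3% and 21.1%. Adult shares were 9.30% and 15.1% in Vwf-high cells and 8.73% and 16.9% in Vwf-0 cells.

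Cells and genes were chosen with earlier results of these data known, lists included. Each library was analysed alone. Cells needed 20 molecules, and genes 20 molecules in both groups together. Vwf, Gja4 and Ptprc were left out of counts past 2-fold. With 1 library a group no test was run. Named genes were the measured ones of the elastic fibre, arterial, sinusoidal, capillary and Wnt ligand lists and the 10 highest and 10 lowest ratios in each library. Results of some genes among these are not reported here. Other lists are given by counts with up to 4 examples. Further genes in comparisons within the Vwf-high cells or with Gja4-positive cells were chosen after their values were seen. Thinning drew 50 molecules a cell without replacement from a fixed seed. The procedure was tested on simulated data. Simulated cells had the real depths and a single composition per group. This could not test the intervals where a few cells hold most of the molecules. Python 3.11.15, numpy 2.4.6, pandas 2.3.3, scipy 1.17.1 and matplotlib 3.10.9 were used. Gene positions are from the GENCODE annotation of GRCm38. Alternatives covered the correction, limits on Vwf, ECs and depth, the denominator, means over cells, cells with stromal markers, and the comparison group.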

Additional observations from a re-analysis of the deposited data

Results flagged for a closer look

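Several genes were picked out because the interval of their ratio of Vwf-high to Vwf-0 cells lay above 1 in one library and below 1 in the other. The difference between the libraries was not tested. Ratios were higher at E18.5 and lower in the adult for Stab1 (1.42 and 0.163), Acta2 (3.24 and 0.277), Fzd7 (2.16 and 0.123), Fzd6 (1.40 and 0.550), Wls (1.27 and 0.319), Ptn (1.25 and 0.225) and Myc (1.15 and 0.221). Ratios were lower at E18.5 and higher in the adult for Kitl (0.587 and 1.28), Cdh13 (0.557 and 1.55), Rgs5 (0.465 and 1.89) and Ccn3 (0.394 and 1.94).

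The adult values move with the Srgn-rich cells. Without them the adult ratios were 0.265 for Stab1, 2.19 for Kitl, 2.59 for Cdh13, 3.18 for Rgs5 and 3.11 for Ccn3. That of Fzd6 (0.946, 0.760 to 1.17) no longer excluded 1. Most Acta2 molecules of the adult Vwf-0 cells lay in a single cell, so its low adult ratio rests on that cell. The E18.5 ratio of Rgs5 lay above 1 with RSEC and with uncorrected counts.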

How the results depend on the processing

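No paired analysis was possible because each group had 1 library and no result came from a test. There was likewise no replicate to leave out. Cells with Wnt2 or Mgp were few, and genes under 20 molecules in both groups together entered no count of genes past 2-fold.

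At E18.5 the 9 genes at least 2-fold higher kept their side of 1 in 112 of 113 values under the alternatives, and the 4 lower genes in 41 of 45. In the adult the 6 higher genes did so in 69 of 71 and the 13 lower genes named in 151 of 152. With RSEC counts Vwf-0 cells dropped to 428 at E18.5 and 458 in the adult. The E18.5 cells numbered 288 with 5 Vwf molecules required and 282 without cells holding a stromal marker. The adult cells numbered 107 at depths of 50 to 200 molecules, 4 without stromal marker cells and 89 where a Kdr molecule was required, an alternative added after the data were seen, as was leaving out Srgn-rich cells.

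The E18.5 ratio of summed Wnt ligands was 3.10 with RSEC, 3.40 with uncorrected counts, 5.40 as a mean over cells, 4.43 without stromal marker cells and 5.6 against all cells under 3 Vwf molecules. The adult one, below 1 in the report, was 1.26 without stromal marker cells, 0.976 without Srgn-rich cells and 1.06 with Kdr required. The E18.5 elastic fibre ratio was 1.73 with RSEC, 1.83 with uncorrected counts, 2.07 and 2.59 with limits of 2 and 5 on Vwf, 2.48 with Vwf, Pecam1 and Kdr left out of the denominator, 2.08 as a mean over cells and 2.11 against all cells under 3 Vwf molecules. The adult one was 2.39 with RSEC, 2.50 with uncorrected counts, 4.08 with a limit of 5 on Vwf, 4.80 with 10 Pecam1 and Kdr molecules, 3.34 at 50 to 200 molecules, 4.0 with that denominator, 3.47 against all cells under 3, 2.08 without Srgn-rich cells and 2.95 with Kdr required.

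Genes at least 2-fold higher at E18.5 fell to 3 with RSEC, and in the adult numbered 11 at 50 to 200 molecules, 11 as a mean over cells, 3 without stromal marker cells and 10 without Srgn-rich cells. Genes at least 2-fold lower at E18.5 numbered 0 with RSEC, 1 with uncorrected counts, 7 at 50 to 200 molecules, 1 without stromal marker cells, 7 with a minimum of 5 molecules and 2 with Kdr required. In the adult they numbered 22 with RSEC, 21 with uncorrected counts, 22 at 50 to 200 molecules, 9 without stromal marker cells, 22 without Srgn-rich cells and 23 with Kdr required. Single genes that crossed 1 at E18.5 were Aspn (1.8 with RSEC, 1.65 uncorrected), Cdk14 (0.687 with RSEC) and Rgs5 (1.23 and 1.08). In the adult they were Mgp (0.164 without stromal marker cells), Srgn (0.761 without Srgn-rich cells, which Srgn itself picked) and Wnt9a (1.16 uncorrected). The causes were not tested.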

Other observations

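Vwf also divided the E18.5 cells with Gja4. Of 467 such cells, 162 had at least 3 Vwf molecules, and in these Fbln5 was at 497 per 10000 against 177 in the other 305, a ratio of 2.81. Wnt2 had 108 molecules in 18 cells against 52 in 16, or 41.6 against 15.6, and Wnt9b had 28 molecules in 5 cells against 2 in 2. The ratio of Mgp was 13.1 and that of Fbn1 2.19.

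In the library of E18.5 BM cells 18 cells met the same limits, with 3 to 7 Vwf molecules, beside 259 with none. Wnt2 and Wnt9b were at 0 in both groups. The summed elastic fibre genes had a ratio of 0.990, Stab1 one of 2.77 and the summed arterial genes 3.99.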
